A study of Mus musculus with 12 samples.

Results

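Fos, Fosb, Fosl1, Fosl2, Jun, Junb, Jund, Egr1, Egr2 and Egr3 are the 10 genes of the AP-1 and EGR transcription factor families considered here. They were taken by gene symbol and not by a threshold on measured values. The array's annotation lists 9 probes for 9 of them among its 25697 probes, and none for Fosl2. A probe counted as detected on an array where its detection p-value fell below 0.05, and it was tested where 3 or more arrays detected it. This left 11977 probes, of which 8 belong to members, and Egr1 was not among them.

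The cells were RAW264.7, 1 established mouse macrophage-like line. Bulk RNA was hybridised to Illumina bead arrays, 3 arrays in each of 4 groups, and each array is a biological replicate per the labels. The untreated group received neither agent. A second group received gefitinib, an inhibitor of the EGF receptor tyrosine kinase, at 10 µM, recorded as a pretreatment of 1 h. The next group received CpG DNA, a stimulus of the endosomal Toll-like receptor for unmethylated DNA, at 10 µg/ml for 6 h. The last received gefitinib at 10 µM for 1 h and then CpG at 10 µg/ml for 6 h. The labels do not say how long cells without CpG were incubated in all, nor whether they received a vehicle. All 4 groups are the same line, so cells of other macrophage sources were not covered.

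AP-1 is a dimer of basic leucine zipper proteins, formed by FOS and JUN family members with each other or with partners of the ATF, BATF and MAF families. Fos and Egr genes are immediate early genes: growth factors and microbial products switch them on through mitogen-activated protein kinases within minutes, and the transcripts are short-lived. EGR proteins are zinc finger factors, and in macrophages both families are known for their part in activation, cytokine genes and differentiation. RNA with CpG was taken at 6 h, and no earlier time was analysed here.

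Promoters from RefSeq (GRCm38.p6), each of 300 bases, with 250 before the start and 50 after it, were held for 7 of the 10 members, in 11 entries. The promoters of Fos, Junb and Egr2 are shown because the results below turn on these 3 genes, and capitals mark a motif match. Fos lies on the plus strand at chr12:85473640-85473939, Junb on the minus strand at chr8:84978699-84978998, and the Egr2 start shown on the plus strand at chr10:67537619-67537918.
Fos: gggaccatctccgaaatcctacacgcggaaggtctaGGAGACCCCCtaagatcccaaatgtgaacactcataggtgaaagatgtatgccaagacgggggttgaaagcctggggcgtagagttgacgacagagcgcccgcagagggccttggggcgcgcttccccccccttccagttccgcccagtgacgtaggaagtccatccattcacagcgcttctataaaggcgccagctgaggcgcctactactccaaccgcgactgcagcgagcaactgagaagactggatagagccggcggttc
Junb: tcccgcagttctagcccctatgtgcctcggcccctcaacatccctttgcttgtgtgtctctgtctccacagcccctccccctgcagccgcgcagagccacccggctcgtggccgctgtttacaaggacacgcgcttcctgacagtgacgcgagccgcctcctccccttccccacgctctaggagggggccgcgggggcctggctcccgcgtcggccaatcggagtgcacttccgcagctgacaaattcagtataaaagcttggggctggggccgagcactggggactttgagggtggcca
Egr2: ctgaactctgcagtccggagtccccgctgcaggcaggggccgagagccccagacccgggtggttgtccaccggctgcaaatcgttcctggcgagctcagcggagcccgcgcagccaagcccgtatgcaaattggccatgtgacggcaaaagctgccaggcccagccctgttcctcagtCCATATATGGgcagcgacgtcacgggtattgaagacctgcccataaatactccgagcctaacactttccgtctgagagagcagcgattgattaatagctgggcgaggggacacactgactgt
Both strands were searched for 5 motifs. The AP-1 site TGANTCA, the cyclic AMP response element TGACGTCA and the EGR site GCGTGGGCG had 0 matches in the members' entries. They were present in 7.81%, 1.79% and 0.612% of the 32851 RefSeq promoters. The capitals in Fos are a match to the kappa B motif, which was found in 4 of the 7 members and in 8.46% of all promoters. The capitals in Egr2 are a match to the CArG box, the motif of serum response factor, which was found in 4 of the 5 Egr2 entries and in 1.63% of all promoters. The Egr2 entries starting at 67537619, 67537620 and 67537680 overlap and hold the same match, so these are not separate sites. Jun, Junb and Jund had no match. The kappa B and CArG motifs do not overlap in the entries shown, and a match describes the letters of a window, not a bound site.

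Between 10705 and 11181 probes (41.7% to 43.5%) were detected per array, and the number of arrays limits the precision. The first principal component carried 61.1% of the variance. Of 10 macrophage markers on the array, 7 were detected on all 12 arrays (Adgre1, Lyz2, Ptprc, Spi1, Fcgr1, Cd14 and Tyrobp), while Fcer1g and Mrc1 were detected on none. The macrophage marker Itgam was detected on 3 arrays. Of 8 fibroblast and epithelial markers 7 were detected on no array, but the epithelial marker Cdh1 was detected on 11. Of 11 lymphocyte and granulocyte markers 9 were detected on none, and Elane was detected on 2 arrays. The summed normalized signal of the lymphocyte and granulocyte list was 1392 to 2079 with CpG alone, against 396 to 460 in untreated cells, 331 to 373 with gefitinib and 340 to 362 with both, and S100a8 was its 1 marker detected on all 12 arrays. That of the macrophage list was 40467 to 42466 with CpG alone, against 28883 to 31928, 26146 to 29341 and 24019 to 27541. The fibroblast and epithelial list lay between 176 and 202 in every group. Both the first and the second of these lists were highest in the CpG-alone group, as were 4 members below, and their part in the members' results was not tested.

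CpG raised 4 of the 8 tested members: Fosl1, Junb, Fos and Jun, where 9.67% of all probes were called higher. The Fosl1 probe passed the detection filter only through the CpG arrays. The same 4 genes were lower again when gefitinib was given before CpG, where 14.7% of all probes were called lower. Jund was also called lower there, but its groups overlap and 14 of 23 alternative settings did not give the call. Egr2 had another pattern: it was higher in both groups that received gefitinib. No member differed past the threshold between gefitinib with CpG and gefitinib alone, and 0 of all 11977 probes did. Values below are log2 of the background-corrected, quantile-normalized signal, and differences are limma estimates with their standard error (SE) and a p adjusted by Benjamini-Hochberg over all 11977 probes, called at 0.05. In bulk RNA, fewer cells with a transcript and less of it per cell cannot be told apart. The comparisons share arrays: each of the 4 groups enters more than 1 of them, so the comparisons do not repeat each other independently. Probes differ in their binding, so levels are not compared between genes.

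**Figure D1:**
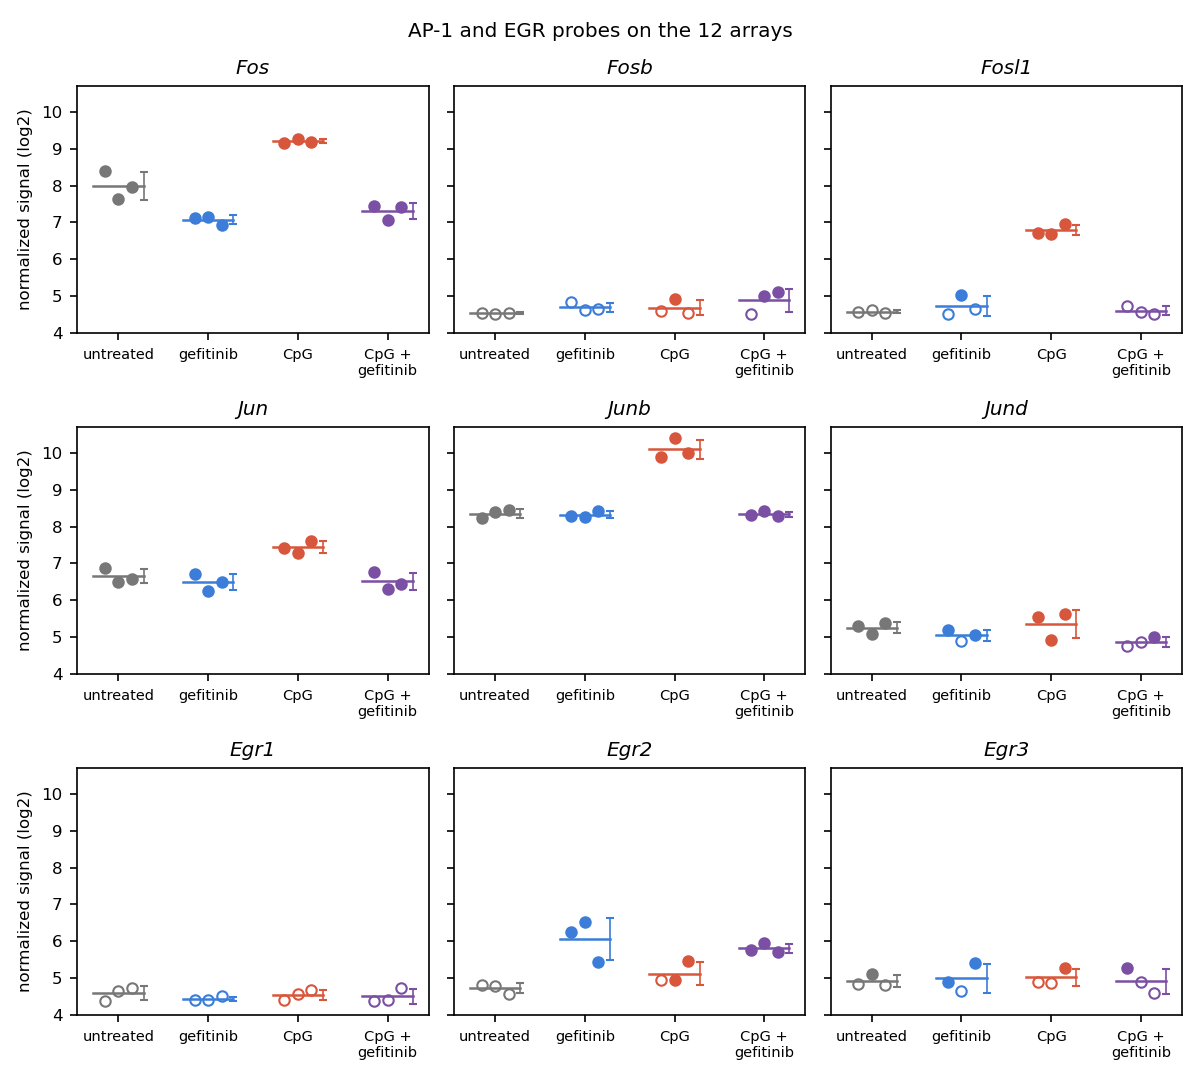
Log2 normalized signal (vertical axis) of the 9 member probes on each of the 12 arrays, by group; filled points were detected (detection p under 0.05), open points were not, bars are group means and error bars are SD over 3 arrays. The 3 CpG arrays of Fos, Fosl1, Jun and Junb lie above all others, those of Egr2 do not, and Egr1 has open points only.

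Fos encodes the founding FOS protein, which cannot pair with itself and needs a JUN partner. Its probe, ILMN_2750515, was detected on all 12 arrays. The deposited signals were 510, 295 and 343 in untreated cells, 282, 225 and 187 with gefitinib, 798, 679 and 584 with CpG, and 288, 236 and 249 with both. On the log2 scale Fos stood at 8.39, 7.63 and 7.97 in untreated cells, 7.12, 7.16 and 6.94 with gefitinib, 9.17, 9.27 and 9.18 with CpG, and 7.44, 7.06 and 7.43 with both agents. The CpG arrays lay above all others, the untreated arrays came next, and the gefitinib groups were lowest and overlapped each other. CpG raised Fos by 1.21 ± 0.17 (SE), or 2.31-fold (adjusted p = 0.000152). Gefitinib alone lowered it: the log2 difference from untreated cells was -0.92 ± 0.17 (adjusted p = 0.00746), and without background correction -0.58. With both agents Fos was below CpG alone, with a log2 difference of -1.90 ± 0.17 and a 3.73-fold lower level (adjusted p = 1.65e-06). It was also below untreated cells, with a log2 difference of -0.69 ± 0.17 (adjusted p = 0.0453), a call that 13 of 23 alternative settings did not give. In the order of levels, gefitinib alone and both agents were neighbours that did not differ beyond their spread, and each further step, to untreated and then to CpG, passed the threshold.

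Fosl1 encodes FRA-1, a FOS protein without the strong activation domain of FOS, known as a later and longer-lasting member of the family. Its probe, ILMN_2649550, was detected on the 3 CpG arrays and on 1 gefitinib array. Log2 values were 4.56, 4.62 and 4.53 in untreated cells, 4.52, 5.03 and 4.64 with gefitinib, 6.72, 6.69 and 6.94 with CpG, and 4.73, 4.57 and 4.50 with both. The CpG arrays stood apart from the 9 others, which overlapped. The fitted difference of CpG from untreated was 2.21 ± 0.14 (adjusted p = 4.21e-08). Because no untreated array detected the probe, the fold is a bound: Fosl1 was at least 3.64-fold higher with CpG. This and the other bounds given below as "at least" are on the background-corrected scale. The bound sets the mean of the CpG arrays against, on each untreated array, the higher of the probe's own value and the lowest value of a detected probe. With both agents it was not detected on any array, at least 3.67-fold lower than with CpG alone, with a fitted log2 difference of -2.19 ± 0.14 (adjusted p = 4.18e-08). Without background correction the 2 differences were 0.74 and -0.74, still called, so the size rests on that step. The probe passed the detection filter only through the CpG arrays, so it had to differ in these comparisons.

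Fosb and Fosl2 complete the FOS family. Fosb encodes a further activating FOS protein, and Fosl2 encodes FRA-2. The Fosb probe, ILMN_2778279, was detected on 3 arrays, 1 with CpG and 2 with both agents. Its log2 values ran from 4.49 to 4.55 in untreated cells, 4.60 to 4.83 with gefitinib, 4.54 to 4.90 with CpG, and 4.51 to 5.11 with both. The untreated arrays lay below those with gefitinib, the other groups overlapped, and no comparison of Fosb passed the threshold. Its difference between CpG and untreated cells had a 95% interval of -0.17 to 0.49 on the log2 scale. The probe was detected on no untreated array and on 1 CpG array, so this interval is one of values near background. Fosl2 was not analysed here.

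Junb encodes JUNB, a JUN protein with weaker activation than JUN that can also restrain it. Its probe, ILMN_1220034, was detected on all 12 arrays. Its deposited signals were 467, 433 and 438 in untreated cells, 500, 377 and 358 with gefitinib, 1277, 1393 and 989 with CpG, and 441, 440 and 377 with both. The log2 values were 8.23, 8.40 and 8.44 in untreated cells, 8.30, 8.25 and 8.42 with gefitinib, 9.90, 10.41 and 9.99 with CpG, and 8.31, 8.42 and 8.28 with both agents. The CpG arrays were again apart from the rest, and the other 3 groups overlapped. CpG raised Junb 3.35-fold, by 1.74 ± 0.13 (adjusted p = 4.28e-07). With both agents it was 3.40-fold lower than with CpG alone, a log2 difference of -1.76 ± 0.13 (adjusted p = 3.04e-07). Gefitinib alone against untreated was not called for Junb, with means of 8.32 ± 0.09 (SD, n = 3) against 8.36 ± 0.11 in untreated cells.

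Jun encodes c-JUN, which pairs with FOS or with itself and is activated by JUN N-terminal kinases. Its probe, ILMN_2646625, was detected on all 12 arrays, at log2 values of 6.89, 6.50 and 6.58 in untreated cells, 6.71, 6.26 and 6.50 with gefitinib, 7.43, 7.29 and 7.62 with CpG, and 6.77, 6.31 and 6.45 with both. All 3 CpG arrays exceeded every other array, and the remaining groups overlapped. CpG raised Jun 1.73-fold, by 0.79 ± 0.16 (adjusted p = 0.00265). With both agents it was 1.91-fold lower than with CpG alone, a log2 difference of -0.94 ± 0.16 (adjusted p = 0.000505). Without background correction the differences shrank to 0.43 and -0.49, and both kept their call.

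Jund encodes JUND, the JUN protein that many resting cells hold steadily and that tends to oppose growth. Its probe, ILMN_2682788, was detected on 9 arrays, including all 3 of untreated and CpG, 2 of gefitinib and 1 of both. Log2 values were 5.28, 5.08 and 5.39 in untreated cells, 5.18, 4.88 and 5.05 with gefitinib, 5.54, 4.91 and 5.61 with CpG, and 4.74, 4.86 and 5.002 with both. The second CpG array lay within the range of the arrays with both agents. CpG did not change Jund past the threshold (0.10 ± 0.17, adjusted p = 0.74). The difference of both agents from CpG alone was -0.48 ± 0.17 (adjusted p = 0.0422), but 14 of 23 alternative settings did not give that call, and without background correction the difference was -0.13.

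Egr2 encodes EGR2, known as Krox20, a zinc finger factor of myeloid and myelinating cells. Its probe, ILMN_2623983, was detected on 8 arrays: none untreated, all 3 with gefitinib, 2 with CpG and all 3 with both. Log2 values were 4.81, 4.77 and 4.56 in untreated cells, 6.26, 6.52 and 5.42 with gefitinib, 4.94, 4.93 and 5.47 with CpG, and 5.76, 5.95 and 5.69 with both. The arrays with gefitinib were above untreated on every array, and the third gefitinib array was lower than its 2 partners and within the range of the CpG arrays. The deposited signals ran from 114 to 136 in untreated cells, 126 to 201 with gefitinib, 128 to 139 with CpG and 137 to 163 with both. Gefitinib alone raised Egr2 by 1.35 ± 0.23 (adjusted p = 0.00545), which is at least 2.21-fold over a group in which it was not detected. With both agents it was 1.09 ± 0.23 above untreated (adjusted p = 0.0244), at least 1.84-fold, and 0.69 ± 0.23 above CpG alone (adjusted p = 0.0354). CpG alone did not raise it past the threshold (0.40 ± 0.23, adjusted p = 0.256). Every CpG array nevertheless lay above every untreated array. In the order of levels, the steps from untreated to CpG and from both agents to gefitinib alone did not pass the threshold. Without background correction the difference of gefitinib from untreated shrank to 0.41 and that of both agents to 0.30, so the folds rest on that step. The former was called under all 23 alternatives. The 2 calls with both agents were lost in 9 (against untreated) and 8 (against CpG) of them.

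Egr3 and Egr1 gave little signal. Egr3 encodes a zinc finger factor that shares its DNA site with EGR1, and its probe, ILMN_2653543, was detected on 5 arrays. Its log2 values ran from 4.81 to 5.10 in untreated cells, 4.65 to 5.40 with gefitinib, 4.86 to 5.28 with CpG, and 4.58 to 5.27 with both. No comparison of Egr3 passed the threshold, and its difference between CpG and untreated cells had a 95% interval of -0.35 to 0.54. Egr1, the family's founding member, was measured by ILMN_2662926. It was not detected on any of the 12 arrays, with deposited signals of 99.5 to 123 and a lowest detection p of 0.1. Its level at 6 h was therefore not measurable with this probe, which does not show that the gene was silent.

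**Figure D2:**
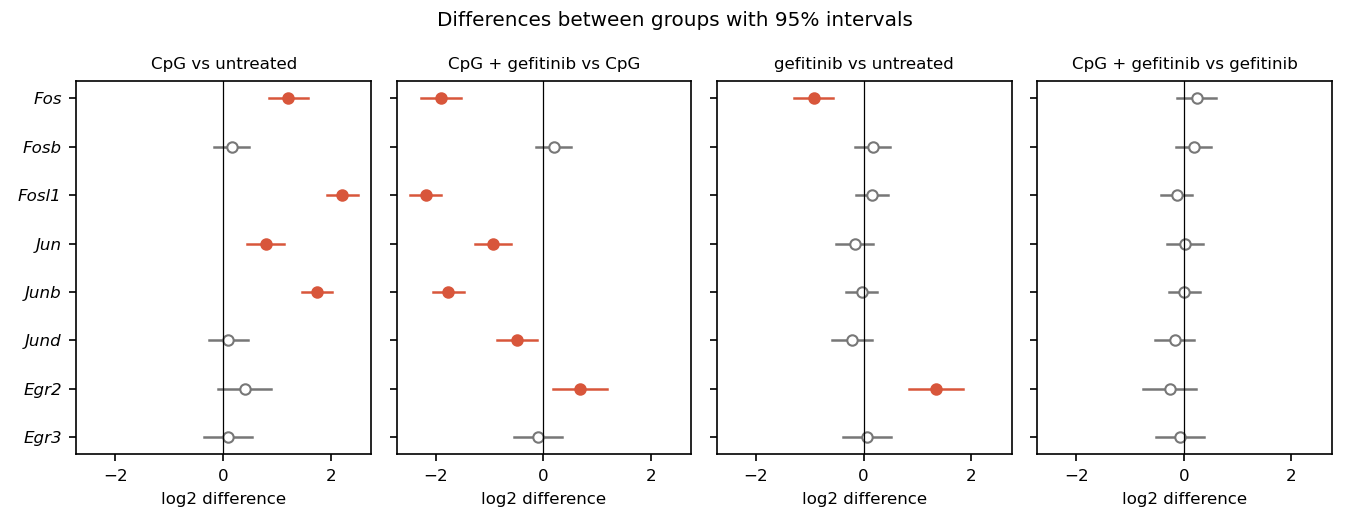
Log2 difference (horizontal axis) of each of the 8 tested members in 4 comparisons, with 95% intervals from the limma fit; filled red points passed an adjusted p of 0.05 over all 11977 probes. Fos, Fosl1, Jun and Junb are filled on the right for CpG against untreated and on the left for both agents against CpG, and Egr2 is filled on the right wherever gefitinib is added.

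In CpG against untreated, the 3 arrays of each group did not overlap for 5 of 8 members, against 34.4% of all probes. The 4 members called were all higher, where 22.2% of all probes were called, 9.67% of all being higher and 12.6% lower. In both agents against CpG, the groups did not overlap for 5 of 8 members, against 44.6% of all probes. Here 6 of 8 members were called, 1 higher and 5 lower, where 33.8% of all probes were called, 19.1% higher and 14.7% lower. In gefitinib against untreated, Egr2 was higher and Fos lower, 2 of 8, where 6.55% of all probes were called, 4.07% higher and 2.47% lower. The groups did not overlap for 3 members and for 29.7% of all probes. In both agents against untreated the same 2 members were called in the same directions, where 3.01% of all probes were called, 1.95% higher and 1.06% lower. The groups did not overlap for 3 members and for 24.7% of all probes. Since probes such as those of Fosl1 passed the filter only through the group where they were high, these shares describe the members and support no claim about them as a set.

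In both agents against gefitinib alone, which asks what CpG added once gefitinib was present, no member was called and 0 of all 11977 probes were called, a background of 0%. The groups did not overlap for 0 members and for 9.94% of all probes. At an unadjusted p under 0.05 there were 0 members and 383 probes. The 95% intervals of the log2 differences were -0.13 to 0.60 for Fos, -0.42 to 0.16 for Fosl1, -0.32 to 0.36 for Jun and -0.27 to 0.30 for Junb. The upper bounds of these 4 intervals all lie below the CpG effects without gefitinib, of 1.21, 2.21, 0.79 and 1.74. For Egr2 the interval was -0.76 to 0.24. A miss of the threshold does not show that CpG had no effect here.

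The interaction term tests directly whether the CpG effect differed with gefitinib. It was called, and lower, for 4 of 8 members, among them Fosl1, whose probe passed the detection filter only through the CpG-alone arrays. Over all tested probes 10.4% were called, 4.89% higher and 5.52% lower. The difference between the CpG effects was -2.34 ± 0.19 for Fosl1 (adjusted p = 1.85e-06), -1.73 ± 0.19 for Junb (adjusted p = 3.08e-05), -0.97 ± 0.24 for Fos (adjusted p = 0.0191) and -0.77 ± 0.22 for Jun (adjusted p = 0.0444). The call for Jun was lost in 10 of 22 alternatives, and that for Fos with median scaling (adjusted p = 0.118) and without the second array of CpG with gefitinib (adjusted p = 0.0511). Egr2 did not pass it (-0.66 ± 0.33, adjusted p = 0.248), except without the third gefitinib array, where the value was -0.99 (adjusted p = 0.0196).

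**Figure D3:**
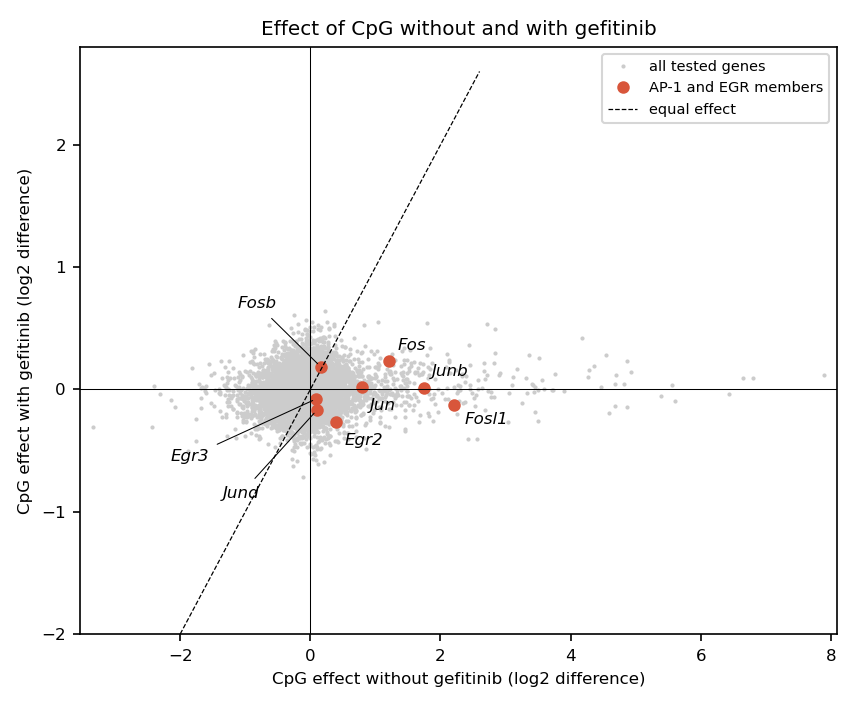
Log2 effect of CpG without gefitinib (horizontal axis) and with it (vertical axis, a finer scale); grey points are the 8101 tested genes, red points are the 8 tested members, and the dashed line marks equal effects. Fosl1, Junb, Fos and Jun lie at 0.79 or more on the horizontal axis and between -0.13 and 0.24 on the vertical axis.

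Correlations between members over the 12 arrays are given as a description, because arrays of 1 group share their treatment. Pearson's r was 0.97 between Fosl1 and Junb, 0.91 between Fos and Jun, 0.88 between Fosl1 and Jun, 0.87 between Fos and Junb, and 0.86 between Fos and Fosl1. For Fos and Egr2 r was -0.58, although for both genes the arrays of CpG alone lay above the untreated arrays. The genes most like each member were taken as the 3 highest r over the 12 arrays. For Fos they were Ifi47 (0.991), St3gal6 (0.984) and Milr1 (0.984), and 249 genes exceeded 0.9. For Fosl1 they were Pstpip2 (0.992), Parp14 (0.991) and Il6 (0.988), and 335 genes exceeded 0.9. Junb was closest to Ifi202b (0.992), Zfp36 (0.991) and Ifi44l (0.991), with 357 genes above 0.9, and Jun to Cox17 (0.975), Trem1 (0.969) and Ikbke (0.963), with 185. Many genes thus had a profile like those of these 4 members. Egr2 and Jund had 1 gene each above 0.9: Triobp (0.910) for Egr2, followed by Lmo4 (0.871) and Etfrf1 (0.869), and Myo9a (0.917) for Jund, followed by Serpini1 (0.880) and E2f3 (0.869). Fosb was closest to Pex5 (0.894), Slc46a1 (0.853) and Treml2 (0.805), Egr3 to Cog4 (0.801), Spib (0.796) and Wdr93 (0.786), and neither had a gene above 0.9.

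Of 18 listed basic leucine zipper partners and relatives of AP-1, 12 were tested. CpG raised 6 and lowered none, where 9.58% of all 8101 genes were higher and 14.4% lower. With both agents against CpG 4 were lower and none higher, where 14.6% of all genes were lower and 21.3% higher. The median log2 differences were 0.46 and -0.23 over the list, and -0.06 and 0.06 over all genes. Atf3, an ATF family repressor that pairs with JUN proteins, rose 2.73-fold with CpG (1.45 ± 0.14, adjusted p = 6.24e-06) and was lower with both agents (-1.11 ± 0.14, adjusted p = 5.38e-05). Batf and Batf2 encode short zipper proteins that pair with JUN. Batf was raised by 0.67 ± 0.14 and its log2 difference between both agents and CpG was -0.75 ± 0.14, while Batf2 was not detected in untreated cells or with both and stood at least 1.51-fold higher in the CpG group than in untreated cells, and at least 1.52-fold lower with both agents than in the CpG group. Without background correction these fitted log2 differences of Batf2 were 0.25 and -0.30, so its bounds rest on that step. Without the arrays of CpG alone, 2 of the 12 would not have passed the filter. Nfe2l1, a relative that controls proteasome genes, was the 1 list member higher with gefitinib alone (0.74 ± 0.12, adjusted p = 0.00413), and it is named after its value was seen. Over all genes 4.41% were higher with gefitinib alone. Nfe2l1 was also called higher than in untreated cells with CpG (0.60) and with both agents (0.64), and its interaction of -0.70 was called.

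The kinase lists hold the cascades that act on AP-1 and EGR genes. In the ERK cascade, 7 of 16 listed genes were tested. CpG raised 1 and lowered none, where 9.58% of all genes were higher and 14.4% lower. With both agents against CpG 2 were lower and none higher, where 14.6% and 21.3% were. The gene raised was Map3k8, the kinase that links NF-kappa B signalling to ERK (1.39 ± 0.14, adjusted p = 5.22e-06). Map3k8 was lower with both agents (-1.22 ± 0.14, adjusted p = 1.38e-05). Map2k1, which encodes MEK1, was lower with both agents than with CpG (-1.22 ± 0.37, adjusted p = 0.0211), though not called for CpG itself (adjusted p = 0.18), and its values spread more. In the JNK and p38 cascades, 11 of 16 were tested, and CpG raised 1 and lowered 5, where 9.58% of genes were higher and 14.4% lower. With both agents against CpG 6 were higher and 1 lower, where 21.3% and 14.6% were. Map2k6, the kinase of p38, was not detected with CpG: at least 1.72-fold lower than in untreated cells, and at least 1.94-fold higher with both agents than with CpG (adjusted p = 8.07e-05). Without background correction the fitted log2 differences of Map2k6 were -0.26 and 0.32, both called. Its other probes gave -1.08, called, and -0.43, not called (adjusted p = 0.0552), for CpG against untreated. Their bounds there were 1.66-fold and 1.15-fold. For both agents against CpG they gave 1.29 and 0.99, both called. Rps6ka5, a nuclear kinase of histone H3 and CREB, fell with CpG by 0.53 ± 0.14 on the log2 scale (adjusted p = 0.0135) and was higher with both (1.00 ± 0.14, adjusted p = 8.88e-05). Over 23 alternative settings its log2 differences came down to -0.15 and 0.31. Mapkapk2, which stabilises cytokine transcripts, went the other way, up by 0.67 ± 0.17 with CpG and with a difference of -0.85 ± 0.17 with both. Of the SRF and ternary complex factors, which bind the CArG box, 2 of 6 were tested and none was called in any comparison. Over all genes, 23.9% were called with CpG and 35.9% with both agents against CpG.

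Among immediate early and target genes, more were raised by CpG than lowered. Of 17 other immediate early regulators 8 were tested: 4 rose with CpG, none fell, and with both agents against CpG 6 were lower and none higher. Over all 8101 genes, 9.58% were higher and 14.4% lower with CpG, and 21.3% higher and 14.6% lower with both agents against CpG. Zfp36, which destabilises cytokine transcripts, rose by 2.63 ± 0.11 and was lower with both agents than with CpG (-2.60 ± 0.11, adjusted p = 7.19e-10). Rel, an NF-kappa B subunit, rose by 1.26 ± 0.13 and was lower with both (-1.20 ± 0.13, adjusted p = 9.63e-06). Over 23 alternative settings these differences of Rel came down to 0.42 and -0.40, and all were called. Of 30 genes listed as bound or driven by AP-1 or EGR1, 23 were tested, 20 of them higher and 2 lower with CpG, and 19 lower and 2 higher with both agents against CpG. The list is made of inflammatory genes that other factors also drive. Its median log2 differences were 1.43 and -1.75, beside -0.06 and 0.06 over all genes, and 5 of its 23 genes would not have passed the filter without the CpG-alone arrays. Il1b, the cytokine interleukin-1 beta, and Cxcl2, a neutrophil chemokine, were not detected in untreated cells or with both agents. They were at least 166-fold and at least 86.5-fold higher with CpG than untreated, and at least 167-fold and at least 87.2-fold lower with both than with CpG. Without background correction the fitted log2 differences were smaller, 5.34 and -5.28 for Il1b and 4.37 and -4.38 for Cxcl2, and all were called. Ccl2, a monocyte chemokine, was detected on 1 of 3 untreated arrays and on 1 of 3 arrays with both, and its log2 differences were 6.65 ± 0.23 and -6.73 ± 0.23 (adjusted p = 1.51e-10 and 1.29e-10).

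The last lists hold EGR co-repressors and factors that turn over FOS and JUN proteins. Of the EGR relatives and co-repressors 2 of 4 were tested. Nab1, a co-repressor of EGR proteins, was raised by CpG (0.52 ± 0.12, adjusted p = 0.00649) and lower with both agents (-0.41 ± 0.12, adjusted p = 0.0174), and its other probes gave -0.63 and -0.60, both called, and -0.37, which was not (adjusted p = 0.0745). Of the turnover list 7 of 11 were tested, and none was called with CpG, where 23.9% of all genes were called. With both against CpG 1 was lower and 1 higher, where 35.9% of all genes were called. Cop1, an E3 ligase for JUN, was lower (-0.60 ± 0.19, adjusted p = 0.0235) and Trib3, a pseudokinase, was higher (0.58 ± 0.18, adjusted p = 0.0208). Trib3 was also higher with gefitinib alone (0.68 ± 0.18, adjusted p = 0.0368). Over 23 alternative settings these 2 differences of Trib3 came down to 0.16 and 0.18. No gene of any of these lists was called between both agents and gefitinib alone, where 0 of all 8101 genes were called.

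**Figure D4:**
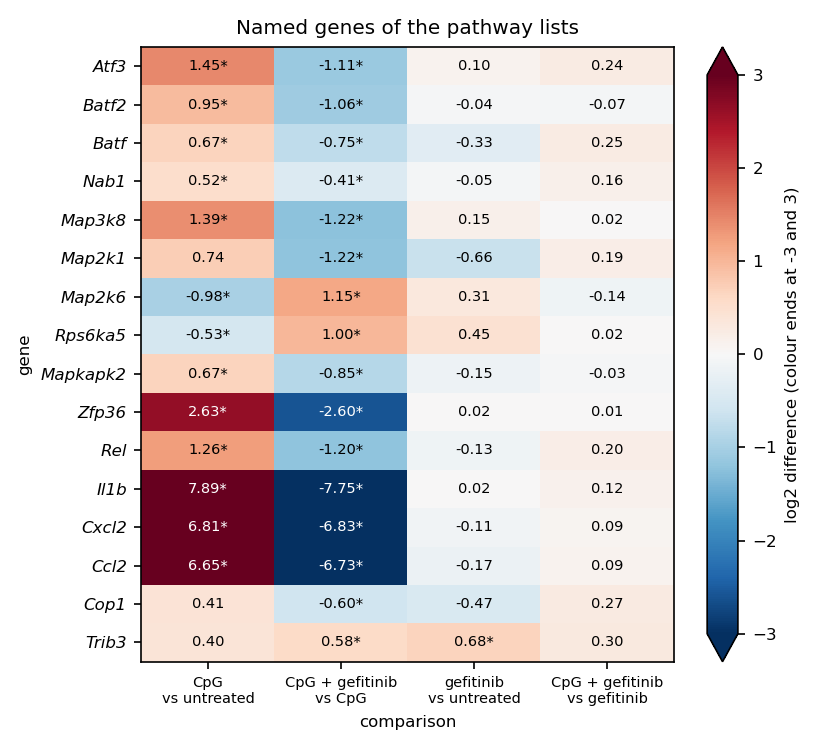
Log2 difference (colour, ending at -3 and 3) of the named list genes in the comparisons shown; an asterisk marks an adjusted p under 0.05 over all probes. Il1b, Cxcl2 and Ccl2 exceed the ends of the scale, and for Il1b, Cxcl2, Batf2 and Map2k6 the called colours stand for fitted differences from a group in which the probe was not detected.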

How the data were processed

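Expression was measured in RAW264.7 cells on 12 Illumina bead arrays, 3 in each of 4 groups taken from the labels. Signals were deposited as linear, non-normalized bead intensities (per the file headers), and the submitters' processing notes name GenomeStudio 2010.2. A deposited detection p-value accompanies every signal. The authors' value table holds the same intensities after quantile normalization, and served as an alternative. The genome build behind the array annotation is not given in the sources used here.

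With limma 3.58.1 in R 4.3.3, signals were background-corrected (normexp from the detection p-values, offset 16), quantile normalized and taken to log2. Probes detected (p under 0.05) on at least 3 arrays were kept, and all 12 arrays entered 1 linear model with a mean per group (lmFit, eBayes), with Benjamini-Hochberg adjustment over 11977 probes. The procedure was tested on simulated data. Lists of 115 genes, 98 of them on the array, were counted by the brightest probe, and the text names up to 3 called genes per list with the largest difference between both agents and CpG. For each tested member, the 3 genes of highest correlation over the arrays are named. Of the probes, 23978 had 1 symbol in the platform annotation and 1719 were not listed there. The members and lists were chosen with earlier results of these data known. Deviations from group means were correlated between arrays of different groups to see whether replicate numbers pair them: 12 of 18 same-number pairs (median r 0.16) and 6 of 36 others (median -0.08) were over 0.1. All same-number pairs were over 0.1 between both agents and CpG and between both agents and gefitinib, but not between other groups. These are signs of pairing in part of the groups. The main model has no block, and the replicate number as a block was run as an alternative. A block changed no call of a member.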

Additional observations from a re-analysis of the deposited data

Results flagged for a closer look

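4 of the 8 tested members gave a CpG effect that differed between cells with and without gefitinib by the interaction term of the limma fit. Over all tested probes 10.4% were called by this term. The call for Jun was lost in 10 of 22 alternatives and that for Fos in 2. The difference between the effects, on the log2 scale, was -2.34 for Fosl1 (adjusted p = 1.85e-06), -1.73 for Junb (adjusted p = 3.08e-05), -0.97 for Fos (adjusted p = 0.0191) and -0.77 for Jun (adjusted p = 0.0444). In all 4 genes the 3 arrays of CpG alone were above the 3 arrays with both agents. The Fosl1 probe passed the detection filter only through the arrays of CpG alone, so its difference was favoured by the filter.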

How the results depend on the processing

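Over 23 alternative settings, 4 members were called in CpG against untreated and 2 in gefitinib against untreated in every one, and 0 in both agents against gefitinib. In both agents against CpG 4 to 6 were called. For both agents against untreated the count of 2 fell to 1 with median scaling, without background correction, with the deposited quantile-normalized values and with only the groups compared, to 0 with no detection filter, and to 0 to 2 when 1 array was left out. For the interaction the count of 4 was 2 with median scaling and 2 to 4 when 1 array was left out, 2 without the second array of CpG with gefitinib. With the replicate number as a block (replicate block) the counts were 4, 6, 2, 0, 2 and 4, in the order CpG against untreated, both against CpG, gefitinib against untreated, both against gefitinib, both against untreated and interaction, and no call of a member changed. Of 1084 values of single members, 1027 kept their side of the threshold, 56 lost their call and 1 gained it, and no called value changed sign. The cause was not tested. For the called members of both agents against CpG, leaving background correction out or using the deposited values shrank Fosl1 to -0.74, Jun to -0.49 and Egr2 to 0.19.

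For both agents against untreated, the share of calls that were higher was 64.8%, and 81.4% with median scaling. Cyclic loess turned the majority of calls over all probes, from 43.5% to 51.9% higher in CpG against untreated and from 56.4% to 49.2% higher in both agents against CpG. Median scaling moved the median interaction of all probes to 0.13, against 0.05. List counts and the list genes were rerun under the same alternatives, chosen after seeing the data: of the list genes' values, 3057 kept their side of the threshold, 82 lost and 12 gained a call, and none reversed. Of 23 alternatives, Map2k1 was called in 19, Trib3 in 18 and Cop1 in 17 in both agents against CpG, Rps6ka5 in 18 in CpG against untreated, and Trib3 in 13 in gefitinib against untreated. In both agents against CpG the differences came down to -0.36 for Batf and -0.69 for Map3k8, called in all 23. With CpG, the leucine zipper partners ranged from 3 to 7 higher, the JNK and p38 cascades from 2 to 6 lower, and the target list from 18 to 20 higher. Chip or slide as a block was not run, since the headers name none. Probes near background, such as Fosb, Egr3 and Jund, have only a weak limit on what could be seen.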

Other observations

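Vegfa was not called lower with both agents than with CpG, Pdgfa and Plau ran opposite to the 4 AP-1 members, and the genes named here were chosen after their values were seen. Vegfa, a growth factor of blood vessels, was higher with CpG (1.00 ± 0.12, adjusted p = 5.16e-05), with gefitinib (0.89 ± 0.12, adjusted p = 0.00205) and with both agents (1.00 ± 0.12, adjusted p = 0.00133), and with both it stood at the level of CpG alone (adjusted p = 0.999). Its interaction was -0.89 (adjusted p = 0.00452). Pdgfa, a platelet-derived growth factor chain, fell by 1.10 with CpG and was 1.61 ± 0.18 higher with both agents than with CpG (adjusted p = 1.52e-05). Plau, the urokinase plasminogen activator, fell by 0.86 with CpG and was 0.79 ± 0.11 higher with both (adjusted p = 0.000104). The urokinase receptor Plaur moved in the direction of the 4 members: it rose by 2.77 ± 0.15 with CpG and was lower with both than with CpG (-3.71 ± 0.15, interaction -2.79). It was below untreated cells with gefitinib alone (-0.91 ± 0.15, adjusted p = 0.00488) and with both agents (-0.94 ± 0.15, adjusted p = 0.00683), as Fos was. Tnf, a cytokine, rose by 4.17 ± 0.15 with CpG, was lower with both than with CpG (-4.37 ± 0.15, interaction -3.75), and was lower with gefitinib alone (-0.61 ± 0.15, adjusted p = 0.0272), a call kept in 15 of 23 alternatives.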
